A study of Mus musculus with 8 samples.

Results

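The probes described here carry a lone thymine pair after guanine: a single run of adjacent pyrimidines over both DNA strands, made of 2 thymines, with guanine just 5′ of it on its own strand. Members were found from the printed sequences, with no measured value used. Sequences ending in the commonest last 24 bases were kept (122086 of 122095), runs of 2 or more pyrimidines were located on the printed strand and on its reverse complement, and 409 sequences met the rule. In 85 of them the pair lies on the printed strand and adenine follows it (GTTA printed), and in 119 guanine follows it (GTTG printed). In 82 the pair lies on the complement and adenine follows it (GTTA complement), and in 123 guanine does (GTTG complement). Since no other pyrimidine may adjoin the pair, the base 3′ of it is always a purine. The 2 sets used for comparison were 524 probes with a lone thymine pair after adenine and 550 probes without any run of pyrimidines on either strand, called the reference below.

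The study measured staining of UV-treated and untreated DNA microarrays by lesion antibodies, as part of work on how UV changes the binding specificity of transcription factors. The 8 arrays form 4 groups of 2: the Mouse Anti-CPD antibody at 1:400 and the Anti-6-4 Photoproduct antibody (64PP in the labels, 6-4PP here) at 1:80, each on UV and Non-UV arrays. All were read in Alexa 488. Mouse is named as the organism and also in the name of the CPD antibody. The probes are printed DNA, so no cells or tissue were measured. Neither the dose of UV nor how the probes were made double-stranded is stated in the labels. Nothing in the labels says whether the 2 arrays of a group came from separate irradiations, so the p-values below measure the spread between these arrays, which may be technical.

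UV light joins neighbouring pyrimidines on the same strand. In a cyclobutane pyrimidine dimer (CPD) a four-membered ring links the bases, and in a 6-4 photoproduct (6-4PP) a single bond links carbon 6 of the 5′ base to carbon 4 of the 3′ base. Adjacent thymines give both lesions, and the bases flanking a pair are known to affect how readily it reacts. An antibody signal depends on how many lesions formed and on how well the antibody reads each one, and these cannot be told apart here.

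All 409 members share bases 23 to 60 of the printed 60-base sequence and differ only in bases 1 to 22. Apart from the pair, purines and pyrimidines alternate along the probe. The shared stretch is printed here because it shows that the rest of a probe offers no adjacent pyrimidines on either strand.
Bases 23 to 60 of every member: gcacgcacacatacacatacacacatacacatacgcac

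The first 22 bases of 4 members show the classes. Each is the member nearest its class median for the CPD antibody, and capitals mark the 4 bases from the guanine to the purine after the pair. For pairs on the complement the printed strand reads TAAC or CAAC, which are GTTA and GTTG on the opposite strand.
GTTA printed: tatgcacgtGTTAcgtatgtat
GTTG printed: tatgcacgtatGTTGtatgtat
GTTA complement: tatgcacgTAACgtgtatgtat
GTTG complement: cgtatgCAACatgtgtatgtat

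A further set of 8 probes differs only in the base 5′ of the pair and in the pair itself, and shows the design at its plainest. Capitals mark the 3 bases that change. The first is a member, and its values on the arrays follow below.
Thymine pair after guanine: cgtatgcatgcGTTatatgtat
TC after guanine: cgtatgcatgcGTCatatgtat
CT after guanine: cgtatgcatgcGCTatatgtat
CC after guanine: cgtatgcatgcGCCatatgtat
Thymine pair after adenine: cgtatgcatgcATTatatgtat
TC after adenine: cgtatgcatgcATCatatgtat
CT after adenine: cgtatgcatgcACTatatgtat
CC after adenine: cgtatgcatgcACCatatgtat

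The members are alike in make-up. They hold 23 to 32 G and C bases, with a median of 26, against a median of 27 in the reference. Of the 409, 393 were printed once and 16 were printed 5 to 21 times. By name 384 were All_8mer probes, 13 had names that begin with Myc and 12 had other names. Most printed-strand pairs start at base 9, 11 or 13, and most complement-strand pairs occupy printed bases starting at 8, 10 or 12. Members of a class therefore share most of their sequence and are not replicates of each other, so conditions were compared over arrays.

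The arrays had one feature that touches single members. Over all probes, the CPD and 6-4PP arrays of the Non-UV condition with the same replicate number correlated at r = 0.790 (number 1) and 0.745 (number 2), while the 2 Non-UV arrays of an antibody correlated at -0.00165 (CPD) and 0.0109 (6-4PP). UV arrays of one antibody correlated at 0.944 (CPD) and 0.948 (6-4PP). Among members, 6 exceeded the reference median by over 1 log2 unit on the CPD Non-UV array number 2 and 9 did on the matching 6-4PP array, and 5 were the same probes. The deviations of single probes from their group means correlated between the antibodies at 0.765 (Non-UV) and 0.707 (UV) for arrays with the same number. Whether such arrays share a printed surface was not tested. Values over many probes were therefore taken as class medians, and single probes were read on both arrays of a group.

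Without UV the members gave no more signal than the reference. Median intensities of the reference were 1219 and 1048 on the CPD Non-UV arrays and 1497 and 1246 on the 6-4PP Non-UV arrays, and GTTA printed had 1210 and 1040, then 1501 and 1255. The 4 class medians lay within 0.05 log2 units of the reference on all 4 Non-UV arrays. The class GTTG printed, at -0.04 on the second 6-4PP array, was the farthest away. On the UV arrays the reference itself read 1617 and 1603 for the CPD antibody and 1954 and 1951 for the 6-4PP antibody. All log2 values below are heights above the reference median of the same array.

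With the CPD antibody all 4 classes rose after UV, in the order GTTA printed, GTTG printed, GTTA complement, GTTG complement. The median of GTTA printed was 6875 and 6294 intensity units on the 2 UV arrays, which is 2.09 and 1.97 log2 units above the reference. GTTG printed had medians of 3843 and 3603, or 1.25 and 1.17 log2 units. The pair on the complement read lower in both contexts. GTTA complement had medians of 2828 and 2597, or 0.81 and 0.70 log2 units, and GTTG complement had 2151 and 2058, or 0.41 and 0.36 log2 units. On each UV array every class sat above the next one in this order, and the gap between classes exceeded the gap between the 2 arrays.

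The UV effect, the mean of the UV arrays minus the mean of the Non-UV arrays, was tested with limma over the 32 classes of lone runs of 2 pyrimidines with at least 10 probes, and p-values were adjusted by the Benjamini-Hochberg method. For the CPD antibody it was 2.04 (SE 0.034, a 4.12-fold rise, adjusted p = 3.96e-09) for GTTA printed and 1.22 (SE 0.032, 2.33-fold, adjusted p = 4.14e-08) for GTTG printed. It was 0.77 (SE 0.037, 1.71-fold, adjusted p = 1.30e-06) for GTTA complement and 0.39 (SE 0.029, 1.31-fold, adjusted p = 1.10e-05) for GTTG complement. Of the 32 classes 75% were called higher, so a call alone is common here and the sizes carry the comparison. An exact permutation test over the arrays of the median of all members gave p = 0.333, the smallest that 2 arrays against 2 allow, for both antibodies. Above the reference the median rose by 1.00 log2 units with the CPD antibody and 0.15 with the 6-4PP antibody, and in intensity, with the rise of the reference included, 2.84-fold and 1.59-fold.

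With the 6-4PP antibody the same probes rose little or not measurably. GTTA printed had medians of 2429 and 2444 on the UV arrays, 0.31 and 0.32 log2 units above the reference, and GTTG printed had 2243 and 2331, or 0.20 and 0.26. On the complement the medians were at the reference, at -0.03 and 0.02 for GTTA and 0.01 and 0.09 for GTTG. The fitted UV effects were 0.31 (SE 0.034, 1.24-fold, adjusted p = 1.25e-04) for GTTA printed and 0.25 (SE 0.032, 1.19-fold, adjusted p = 2.98e-04) for GTTG printed, the latter not called under quantile normalization (0.22, adjusted p = 0.0616). Those of GTTA complement (-0.00083, SE 0.037, adjusted p = 0.983) and GTTG complement (0.060, SE 0.029, adjusted p = 0.0894) did not pass, in a fit by limma where 87.5% of the 32 classes were called higher. With the scanner intensity without adjustment both passed, at 0.16 (limma adjusted p = 0.00399) and 0.079 (adjusted p = 0.0241). Without UV array number 1 of the 6-4PP antibody, GTTG complement gave 0.099 with adjusted p = 0.0146.

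In all 4 classes the CPD antibody showed the larger UV effect. The difference of the effects was 1.73 (SE 0.048, adjusted p = 7.84e-08) for GTTA printed and 0.97 (SE 0.045, adjusted p = 1.21e-06) for GTTG printed, by the interaction in limma. It was 0.77 (SE 0.053, adjusted p = 1.23e-05) for GTTA complement and 0.33 (SE 0.041, adjusted p = 3.95e-04) for GTTG complement. In this direction 28.1% of the 32 classes were called. The antibodies were used at different dilutions, and the part of dilution in this difference was not tested. The pair after adenine, read on the same arrays, gives a comparison within each antibody.

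After adenine, both antibodies read the thymine pair strongly. On the printed strand followed by adenine (ATTA), the median on the UV arrays was 12317 ± 818 (SD, n = 2) with the CPD antibody and 14018 ± 296 with the 6-4PP antibody. After guanine (GTTA printed) these were 6584 ± 411 and 2437 ± 10.8. Expressed as intensity above the reference, the pair after guanine gave 46.4% ± 0.237 (SD, n = 2 arrays) of the signal of the pair after adenine with the CPD antibody and 4.01% ± 0.00731 with the 6-4PP antibody.

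The other contexts showed the same ordering at other sizes. When guanine followed the pair on the printed strand, the pair after guanine kept 24.9% ± 0.702 of the adenine signal with the CPD antibody and 4.48% ± 0.715 with the 6-4PP antibody. On the complement followed by adenine it kept 49.6% ± 1.11 with the CPD antibody and -0.00927% ± 1.66 with the 6-4PP antibody. On the complement followed by guanine the shares were 21.8% ± 0.223 and 3.58% ± 4.28, and the SD of the last exceeds its value. With the CPD antibody, then, the share was higher before adenine than before guanine on both strands, and with the 6-4PP antibody it was at most 6.60% on any UV array (GTTG complement, number 2).

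Fitted as a difference on the log2 scale, guanine in place of adenine lowered the CPD signal of the printed pair by 1.86-fold before adenine (UV effect of the difference -0.90, SE 0.019, adjusted p = 2.12e-10) and by 2.73-fold before guanine (-1.45, SE 0.029, adjusted p = 1.82e-10). It lowered the 6-4PP signal by 5.65-fold (-2.50, SE 0.019, adjusted p = 1.67e-13) and 3.95-fold (-1.98, SE 0.029, adjusted p = 2.02e-11). This limma fit covered 48 differences between classes of lone runs, of which 41.7% were called higher and 22.9% lower with the CPD antibody and 52.1% and 31.2% with the 6-4PP antibody. For the antibody difference 31.2% were called higher and 16.7% lower. On the complement the CPD signal was lower by 0.52 (SE 0.050) before adenine and 0.88 (SE 0.029) before guanine, and the 6-4PP signal by 1.29 and 0.87 (same SEs), with limma adjusted p of 1.75e-05 or less for each. Quantile normalization ended the CPD call before adenine (-0.38, adjusted p = 0.151) and the 6-4PP call before guanine (-0.29, adjusted p = 0.0513).

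In the adjusted intensity the complement classes after guanine were, for the 6-4PP antibody, not measurably above the reference. Their losses of 1.29 and 0.87 are therefore limited by the reference level and are not exact sizes. The printed classes after guanine were also near the reference with this antibody, at 0.32 (GTTA) and 0.23 (GTTG) log2 units above it. Their losses of 5.65-fold and 3.95-fold are thus limited in the same way. As intensity above the reference they kept 4.01% and 4.48% of the adenine signal. On the printed strand the loss was larger with the 6-4PP antibody. The limit applies to the antibody differences on this strand as well. The antibody difference was 1.60 (SE 0.026, adjusted p = 1.22e-10) before adenine on the printed strand, 0.53 (SE 0.041, limma adjusted p = 3.21e-06) before guanine. On the complement it was 0.77 (SE 0.070, adjusted p = 1.17e-05) before adenine and -0.010 (SE 0.041, adjusted p = 0.863) before guanine, both subject to that limit. Quantile normalization turned the printed GTTG value to -0.014 (adjusted p = 0.996) and lowered that of the complement GTTA pair to 0.31 (adjusted p = 0.510).

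Pairs of probes that differ only in this base, a comparison added after the data were seen, gave the same picture probe by probe. One such pair is printed with the changed base in capitals.
Member, guanine before TTA: cgtatgcgcacGttatatgtat
Partner, adenine before TTA: cgtatgcgcacAttatatgtat
The member read 7898 and 7853 on the CPD UV arrays and 2619 and 2965 on the 6-4PP UV arrays. Its partner read 15674 and 14077, then 14064 and 14728. Among 80 such pairs the member was below its partner in 80 and 79 on the 2 CPD UV arrays and in all 80 on both 6-4PP UV arrays, against 35 and 40 on the CPD Non-UV arrays. Before guanine on the printed strand, the member was lower in 112 of 112 pairs on both CPD UV arrays and in 112 and 111 on the 6-4PP UV arrays. On the complement before adenine the CPD counts were 76 and 69 of 80, and the 6-4PP counts were 80 and 80. On the complement before guanine they were 108 and 110 of 112 with the CPD antibody and 109 and 107 with the 6-4PP antibody.

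The CPD signal also differed with the base after the pair. Adenine gave a higher signal than guanine by 0.82 log2 units on the printed strand (SE 0.025, 1.77-fold, limma adjusted p = 2.45e-09) and by 0.38 on the complement (SE 0.029, 1.30-fold, adjusted p = 3.32e-06), the latter not called under quantile normalization (0.33, adjusted p = 0.0666). As intensity above the reference, GTTA printed exceeded GTTG printed 2.36-fold and 2.34-fold on the 2 UV arrays, and on the complement the ratios were 2.27 and 2.18. One partner pair shows the change in capitals.
Member with adenine after the pair: cgtatgcgtgcgttAtatgtat
Member with guanine after the pair: cgtatgcgtgcgttGtatgtat
The first read 7494 and 6626 on the CPD UV arrays and the other 3840 and 3776. Of 81 such pairs on the printed strand, the probe with adenine was higher in all 81 on both CPD UV arrays, and on the complement it was higher in 73 and 69 of 80.

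For the 6-4PP antibody the base after the pair gave differences near the resolution of the arrays. On the printed strand adenine exceeded guanine by 0.065 (SE 0.025, limma adjusted p = 0.0369), and this call was lost when any of 4 arrays was left out: either CPD Non-UV array (0.065 still, adjusted p = 0.0669), 6-4PP Non-UV number 1 (0.040, adjusted p = 0.197) or 6-4PP UV number 1 (0.042, adjusted p = 0.198). On the complement the difference was -0.061 (SE 0.029, adjusted p = 0.0766). It passed with the replicate number as a block (adjusted p = 0.0392) and without 6-4PP Non-UV number 1 (-0.096, adjusted p = 0.0133). The scanner intensity without adjustment turned it to 0.080 (adjusted p = 0.0242), so its direction is not settled.

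The level also differed with the strand that carries the pair. A pair on the printed strand read higher than the same pair on the complement by 1.27 (SE 0.021, adjusted p = 1.27e-10) for GTTA and 0.82 (SE 0.019, adjusted p = 4.08e-10) for GTTG with the CPD antibody, by limma. With the 6-4PP antibody the differences were 0.31 (SE 0.021, adjusted p = 7.65e-07) and 0.19 (SE 0.019, adjusted p = 1.64e-05), neither called under quantile normalization (0.11 and 0.13, adjusted p = 0.431 and 0.179). Above the reference, GTTA printed gave 4.34 and 4.72 times the CPD intensity of GTTA complement on the 2 UV arrays, and GTTG printed 4.17 and 4.39 times that of GTTG complement. Strands were also matched, after the data were seen, on 8 bases made up of the pair and 3 bases on each side (16 matched contexts for each purine). The CPD differences were then 1.28 and 0.79. Pairs of the 2 strands lie at different bases of the probe, so strand and position cannot be told apart in full.

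On the complement the CPD signal was higher toward the middle of the probe. With the CPD antibody the mean of the 2 class medians of GTTA complement was 0.53 log2 units for pairs at printed bases 8 to 9 (17 probes), 0.75 at bases 10 to 11 (32 probes) and 0.86 at bases 12 to 13 (33 probes). For GTTG complement it was 0.34, 0.40 and 0.47 at these positions (50, 33 and 32 probes). GTTA printed showed no such order, with 2.02, 2.09 and 1.96 at bases 9 to 10, 11 to 12 and 13 to 14 (32, 34 and 17 probes), while GTTG printed had 1.14, 1.22 and 1.25 (32, 32 and 51 probes). Across probes, Spearman's rho of CPD signal with position was 0.530 and 0.503 on the 2 UV arrays for GTTA complement and -0.101 and 0.00994 for GTTA printed. It was 0.328 and 0.316 for GTTG complement and 0.284 and 0.216 for GTTG printed, so the strands were close before guanine. These are descriptions over the 82, 85, 123 and 119 probes, which share most of their bases, and the flanking bases vary with position.

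The pair itself was then set against its cytosine variants in the same frame, by partners that differ in 1 base and with a test chosen after the data were seen. With the CPD antibody TT exceeded TC by 1.96 (SE 0.045) and CT by 1.79 (SE 0.040) for GTTA printed, and by 1.19 (SE 0.046) and 1.17 (SE 0.040) for GTTG printed, with limma adjusted p of 2.70e-09 or less for each. Of the 42 single-base changes in this fit, 31% were called higher and 14.3% lower with the CPD antibody, and 11.9% and 9.52% with the 6-4PP antibody. On the complement TT exceeded TC by 0.74 and 0.37 and CT by 0.63 and 0.37, for GTTA and GTTG. In the 80 frames on the printed strand where adenine follows and all 4 pairs exist, TT was the highest of TT, TC, CT and CC after guanine in 78 and 78 on the CPD UV arrays.

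With the 6-4PP antibody the thymine pair after guanine hardly stood out from TC in the same place. TT minus TC was 0.059 (SE 0.045, limma adjusted p = 0.488) for GTTA printed and 0.037 (SE 0.046, adjusted p = 0.612) for GTTG printed, while TT minus CT was 0.22 (SE 0.040, adjusted p = 0.00216) and 0.19 (SE 0.040, adjusted p = 0.00522). Quantile normalization ended both of the latter calls (0.22 and 0.14, adjusted p = 0.334 each). Medians over the 80 frames were 0.31 and 0.31 for TT after guanine and 0.25 and 0.26 for TC on the 2 UV arrays. After adenine they were 2.86 and 2.88 for TT and 1.92 and 1.99 for TC. TT was highest in 35 and 46 of 80 frames after guanine and in 78 and 77 after adenine.

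With the CPD antibody TT was the highest in the 8 sequences printed above, as in most frames. On the CPD UV arrays the member read 6875 and 6294, and its TC, CT and CC variants after guanine read 1346 and 1393, 2232 and 1938, and 2686 and 1516. The thymine pair after adenine read 10415 and 11019, and ATC, ACT and ACC read 2597 and 2062, 2730 and 2267, and 1723 and 1660. On both arrays the 2 thymine pairs read above the 6 other probes. On the 6-4PP UV arrays the member read 2429 and 2467, against 1951 and 1861 for TC, 2367 and 2146 for CT, and 2282 and 1639 for CC after guanine. After adenine the thymine pair read 14304 and 13831 and TC read 11363 and 11357, while CT read 3096 and 3144 and CC 2187 and 2565. With this antibody the member read above its 3 cytosine variants on both arrays, and all 4 probes with guanine lay below ATT and ATC. The member lay nearer to its CT than to its TC variant, the reverse of the order over the partner pairs.

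Flanks beyond the adjacent bases had smaller effects. They were read from the same fit of single-base changes, chosen after the data were seen. Positions are counted from the pair, with +1 the base just 3′ of it and -1 the guanine. For GTTA printed with the CPD antibody, thymine in place of cytosine at +2 lowered the signal by 0.44 (SE 0.040, limma adjusted p = 3.10e-06 over 32 partner pairs), and by 0.17 under quantile normalization, where the call was lost (adjusted p = 0.308). One such pair, the base at +2 in capitals, is printed.
Cytosine after GTTA: cgtatgcacgttaCgtatgtat
Thymine after GTTA: cgtatgcacgttaTgtatgtat
The first read 8546 and 8486 and the other 6870 and 5509 on the CPD UV arrays. For GTTG printed the same change gave -0.060 (SE 0.040, adjusted p = 0.264) and for GTTA complement -0.090 (SE 0.040, adjusted p = 0.0976). Whether these differ from the first was not tested. With the 6-4PP antibody the change at +2 gave 0.038 (SE 0.040, adjusted p = 0.612) for GTTA printed and 0.16 (SE 0.040, adjusted p = 0.0137) for GTTA complement. The latter call was lost without 6-4PP Non-UV number 2 (adjusted p = 0.0609) or 6-4PP UV number 2 (0.11, adjusted p = 0.114), and the unadjusted scanner intensity gave -0.021.

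Farther from the pair 2 more changes passed for GTTA printed with the CPD antibody, neither firmly. Thymine in place of cytosine at -2 gave -0.18 (SE 0.047, limma adjusted p = 0.00731), lost without CPD Non-UV number 2 (-0.13, adjusted p = 0.0989) or CPD UV number 2 (-0.15, adjusted p = 0.0561). Adenine in place of guanine at +3 gave 0.16 (SE 0.052, adjusted p = 0.0251), lost without either CPD Non-UV array (0.16 and 0.17, adjusted p = 0.106 and 0.0854) or CPD UV number 1 (0.11, adjusted p = 0.175). Changes from -5 to -3 and at +4, where enough partners existed, did not pass for any class with either antibody.

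The hexamer around the pair ranks the classes further. With the CPD antibody the UV effects of GTTA printed were 2.36 (SE 0.043, 21 probes) for CGTTAC, 2.19 (SE 0.060, 12 probes) for TGTTAC, 1.94 (SE 0.085, 30 probes) for CGTTAT and 1.82 (SE 0.045, 22 probes) for TGTTAT. Those of GTTG printed lay between 1.12 (TGTTGC, SE 0.052) and 1.25 (CGTTGC, SE 0.042), with CGTTGT at 1.22 and TGTTGT at 1.19, so neighbours in that order were within their errors. On the complement TGTTAC (0.95, SE 0.045, 12 probes) and CGTTAC (0.86, SE 0.043, 20 probes) were above CGTTAT (0.73) and TGTTAT (0.64), and the GTTG hexamers ran from 0.36 to 0.46. Hexamers were not matched for position, with which the complement signal and the flanking bases vary. In matched partners of GTTA complement, thymine in place of cytosine at +2 gave only -0.090 (limma adjusted p = 0.0976). All 16 hexamers were called higher with the CPD antibody by limma, where 57% of the 128 hexamer contexts fitted were. Quantile normalization ended the call of CGTTGT complement (0.32, adjusted p = 0.0655).

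With the 6-4PP antibody the 8 hexamers on the printed strand were called higher, at 0.21 to 0.35, where 63.3% of the 128 contexts were. All 8 calls were lost under quantile normalization (-0.047 to 0.39, adjusted p = 0.148 to 0.889). On the complement 1 hexamer passed, and in the opposite direction: CGTTAC fell by 0.12 (SE 0.043, limma adjusted p = 0.0299, 20 probes), where 1.56% of contexts were called lower. That call was lost without any 1 of the 4 Non-UV arrays (-0.13 to -0.12, adjusted p at most 0.0980) or without 6-4PP UV number 2 (-0.087, adjusted p = 0.167), and the unadjusted scanner intensity gave 0.16. The difference between antibodies passed toward CPD in all 16 hexamers, from 2.01 for CGTTAC printed to 0.32 for CGTTGT complement, where 25% of contexts were called. Quantile normalization ended 8 of these calls (0.16 to 0.99, adjusted p = 0.0722 to 0.531).

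Probe by probe, the fit over all 122095 sequences called 330 of the 409 members higher after UV with the CPD antibody, where 70.5% of all sequences were called. These were 85 of 85 GTTA printed, 114 of 119 GTTG printed, 67 of 82 GTTA complement and 64 of 123 GTTG complement. By limma 0 of the 409 were called lower (0 also at an unadjusted p under 0.05), where 0.473% of all sequences were. With CPD Non-UV number 1 left out, this did not hold for every member. The median UV effect was 1.01 over members and 1.11 over all sequences, of which 14650 hold a single run. Centring on the median of all sequences, which itself rises with UV, changed these calls to 90 higher and 155 lower. With that centring 39.5% and 40.2% of all sequences were called higher and lower.

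With the 6-4PP antibody 89 members were called higher, where 86% of all sequences were, and 10 lower, where 0.203% were. The higher calls were 37 GTTA printed, 40 GTTG printed, 3 GTTA complement and 9 GTTG complement, and the lower ones were 3 GTTA complement and 7 GTTG complement. The median UV effect was 0.12 over members and 1.71 over all sequences. The higher calls fell without 6-4PP UV number 2. The lower calls rose without 6-4PP Non-UV number 1 and fell without 6-4PP UV number 1. Each time the share of all sequences called moved the same way. Such a fit leaves 1 array in a group, so its counts are not given. With no centring 306 members were called higher and 0 lower, where 96.0% and 0.00164% of all sequences were. With centring on the median of all sequences 0 were higher and 399 lower, where 36.4% and 39.9% were.

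The difference between antibodies leaned toward CPD in nearly every member. It was positive in 405 of 409 and called in 271, where 10.6% of all sequences were called in that direction. The calls were 85 GTTA printed, 102 GTTG printed, 60 GTTA complement and 24 GTTG complement. By limma 0 were called toward the 6-4PP antibody (0 also at an unadjusted p under 0.05), where 36.9% of all sequences were. With CPD Non-UV number 1 left out, this did not hold for every member. The median difference was 0.84 over members and -0.34 over all sequences. Under quantile normalization 0 members were called toward CPD, where 0 of all sequences were. In that direction 86 members and 4991 of all 122095 sequences had an unadjusted limma p under 0.05.

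Members were also counted against the reference without a model. On the CPD UV arrays 348 of 409 members exceeded the 95th percentile of the reference on both arrays, as did 5 of the 550 reference probes. By class these were 85 of 85, 119 of 119, 76 of 82 and 68 of 123, for GTTA printed, GTTG printed, GTTA complement and GTTG complement. On the 6-4PP UV arrays 55 of 409 did (30, 22, 1 and 2, in the same order), against 4 of 550 reference probes. Of probes with the pair after adenine and guanine 3′ on the complement, the weakest adenine class by this count, 139 of 145 exceeded it with the 6-4PP antibody. On the Non-UV arrays 2 members exceeded it with the CPD antibody and 1 with the 6-4PP antibody, against 3 and 1 of the 550 reference probes. The share of all sequences above this level was not counted, so these counts do not set the members apart from other probes.

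How far the spread within a class was repeated on the second array differed by class, less so by rank than by Pearson's r. For GTTA printed, Pearson's r between the 2 CPD UV arrays over 85 probes was 0.748, and between the 2 CPD Non-UV arrays it was 0.161. For GTTA complement these were 0.690 and 0.0252 over 82 probes, for GTTG printed 0.437 and 0.148 over 119 probes, and for GTTG complement 0.165 and 0.360 over 123 probes. The GTTG complement values include the single bright spots described below. Spearman's rho between the 2 CPD UV arrays was 0.771, 0.730, 0.574 and 0.609, in the same order of classes. Between the 2 CPD Non-UV arrays it was 0.196, 0.0197, 0.0950 and 0.0536. The median absolute difference between the 2 CPD UV arrays was 0.19 log2 units in GTTA printed, and the 16 sequences printed several times had a median SD between spots of 0.21 and 0.25 on these arrays. Of these 16 sequences 1 is GTTA printed. On the 2 CPD UV arrays 85 and 84 of the 85 GTTA printed probes exceeded the upper quartile of GTTG printed. How many differences within a class single probes resolve was not tested.

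The members at the ends of each class show which extremes rest on both arrays. In GTTA printed the largest and the smallest CPD effects were 2.70 and 1.25, and capitals mark the 4 bases from the guanine.
Largest CPD effect, GTTA printed: cgtatgcgcGTTAcatatgtat
Smallest CPD effect, GTTA printed: tatgcacgtGTTAtgtatgtat
The first read 10956 and 9636 on the CPD UV arrays and 2760 and 3745 on the 6-4PP UV arrays. The other read 4346 and 4224, then 1787 and 1992. Both ends were repeated on both arrays with the CPD antibody. The ends of this class with the 6-4PP antibody, tatgcacGTTAcgcgtatgtat at 0.75 (SE 0.093) and tatgcacGTTAcgtgtatgtat at -0.35 (SE 0.23), differ by 1 base. The latter was 0.66 above the reference on the second 6-4PP Non-UV array and 0.14 and 0.07 on the UV arrays.

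In the other classes most ends came from 1 bright array number. The complement member cgtatgCAACacgtatatgtat read 59877 on CPD UV number 1 and 61429 on 6-4PP UV number 1, but 2118 and 2150 on the arrays numbered 2. The smallest effects of the complement classes were of the same kind without UV. The probe cgtatgcgTAACgtatatgtat read 41784 and 53318 on the Non-UV arrays numbered 1 and 1168 and 1917 on those numbered 2, and cgtatgcacaCAACgtatgtat read 22808 and 20305 on the Non-UV arrays numbered 2. None of these passed for either antibody. On the printed strand tatgcacgtGTTGtgtatgtat read 13547 and 4905 on the Non-UV arrays numbered 2, against 1280 and 1421 on those numbered 1.

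A few ends were less extreme. The GTTG printed member with the largest effect for both antibodies, tatgcatatacGTTGtatgtat, read 4914 and 11571 on the CPD UV arrays and 2826 and 7611 on the 6-4PP UV arrays, so it was higher on the arrays numbered 2. Its effects were 2.24 (SE 0.53, limma adjusted p = 0.00750) and 1.43 (SE 0.53, adjusted p = 0.0389). The GTTA complement member with the largest CPD effect, cgtatgcgcaTAACacatatgc, read 3724 and 3738 on the CPD UV arrays (1.30, SE 0.17, adjusted p = 3.54e-04) and 1973 and 1925 on the 6-4PP UV arrays. The member of that class with the largest 6-4PP effect, tatgcatgtaTAACgtatgtat, had 0.64 (SE 0.36, adjusted p = 0.137) and read 2702 and 1852 on the 6-4PP UV arrays and 779 and 1293 on the Non-UV arrays, the first of which lies at -0.94 log2 units from the reference. The members nearest the class medians, printed at the start, read 6812 and 7584 (GTTA printed), 4288 and 3877 (GTTG printed), 2830 and 2556 (GTTA complement) and 2138 and 2231 (GTTG complement) on the CPD UV arrays.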

How the data were processed

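Each of the 8 arrays gave 175866 spots with a printed sequence of 60 bases. Per the file headers the deposited adjusted intensity is the Alexa 488 intensity on a linear scale, corrected for the local neighbourhood of the spot. The sources used here do not name its software. Values were log2 of that intensity, averaged over spots of a sequence, minus the median of the 550 probes without a run, which removes any rise shared by all probes. The number of arrays limits the precision.

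Class medians, differences between classes (at least 10 probes a class) and all 122095 sequences were each fitted with limma 3.58.1 in R 4.3.3 (lmFit and eBayes, 4 groups, all 8 arrays), with Benjamini-Hochberg adjustment and a threshold of 0.05. Class tables were made in Python 3.11.15. Scripts were tested on simulated data. Named probes are, per class, those with the largest and smallest effect for each antibody and the one nearest the class median for CPD, plus hexamers with at least 10 probes. Partner pairs of 1 changed base printed as examples were also taken by rule. All comparisons by partner pairs or by matched strands were added after the data were seen. The members and lists were chosen with earlier results of these data known. Replicate numbers do not pair UV with Non-UV arrays: deviations from the group means correlated at 0.000791 (CPD) and -0.00323 (6-4PP). Within a UV condition they do pair the antibodies (0.765 Non-UV, 0.707 UV). Alternatives were the scanner intensity, quantile normalization, an offset of 100, other centring, leaving out saturated spots, dim probes or single arrays, other fits, and position and G+C in the model.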

Additional observations from a re-analysis of the deposited data

Results flagged for a closer look

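The UV effect differed between the antibodies in all 4 classes, by the interaction in limma: 1.73 log2 units toward the CPD antibody for GTTA printed, 0.97 for GTTG printed, 0.77 for GTTA complement and 0.33 for GTTG complement. The antibodies were used at dilutions of 1:400 and 1:80, and the part of the dilution in these values was not tested.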

How the results depend on the processing

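Quantile normalization changed most: it gave 0.22 (adjusted p = 0.0616) for the 6-4PP effect of GTTG printed, -0.38 (0.151) and -0.29 (0.0513) for guanine against adenine on the complement (CPD before adenine, 6-4PP before guanine), 0.31 (0.510) and -0.014 (0.996) for the antibody difference of that step in TTA complement and TTG printed, 0.33 (0.0666), -0.083 (0.503) and 0.39 (0.141) for adenine against guanine 3′ (complement CPD, printed 6-4PP, complement antibody difference), and 0.11 (0.431) and 0.13 (0.179) for the 6-4PP strand difference. Called members fell to 99 (CPD higher), 10 and 6 (6-4PP higher and lower) and 0 (toward CPD). Of all sequences 28.6% were called CPD higher, 36.4% and 0.217% 6-4PP higher and lower, and 0% toward CPD. The cause was not tested.

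The 6-4PP value of GTTA complement, at the reference, turned to 0.16 with the scanner intensity, where it passed (limma adjusted p = 0.00399). It was 0.029 with quantile normalization and 0.57 intensity units on the linear scale, and ran from -0.024 to 0.023 with 1 array left out. GTTG complement gave 0.079 with the scanner intensity, where it also passed (limma adjusted p = 0.0241), and 0.021 to 0.099 with 1 array left out. The antibody difference in TTG complement gave -0.11 with the scanner intensity, where it passed (limma adjusted p = 0.0400), and -0.044 to 0.024 with 1 array left out. Adenine against guanine 3′ with the 6-4PP antibody gave, printed, 0.065 in arrays of 1 antibody only (adjusted p = 0.0802), 0.055 with the scanner intensity, 0.080 with means and 0.040 to 0.089 with 1 array left out. On the complement it gave 0.080 with the scanner intensity, -0.12 with means, -0.10 with position and G+C in the model, -0.058 with matched partners and -0.096 to -0.026 with 1 array left out. Among single changes and hexamers that passed with the 6-4PP antibody, the scanner intensity turned the change at +2 of GTTA complement to -0.021. It turned CGTTAC complement to 0.16, which passed as a rise (limma adjusted p = 0.0356). Quantile normalization turned TGTTAC printed to -0.047.

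Leaving out the dimmest 25% of probes removed most members (140 stayed). It gave 126 CPD higher, 55 and 0 6-4PP higher and lower, and 121 toward CPD. Of all sequences kept, 84.8% were called CPD higher, 94.5% and 0.0120% 6-4PP higher and lower, and 12.5% toward CPD. Brightness was taken over the UV arrays as well, so members that rose with UV were kept more readily. These counts therefore cannot show whether the calls hold without dim probes. Centring on the array median gave 90 and 155 (CPD higher and lower) and 0 and 399 (6-4PP), no centring 306 and 0 (6-4PP), and the scanner intensity 2 lower (6-4PP). The shares of all sequences were, in that order, 39.5% and 40.2%, 36.4% and 39.9%, 96.0% and 0.00164%, and 0.110%. With 1 array left out the counts ran from 0 to 3 (CPD lower), 42 to 95 and 3 to 25 (6-4PP higher and lower) and 0 to 1 (toward 6-4PP).

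With the replicate number as a block, the 3′ difference of the complement with the 6-4PP antibody, -0.061, passed (adjusted p = 0.0392), and no other call of a class or class difference changed. The number within a UV condition as a block, added after seeing the data, changed no call of a class or class difference between the antibodies. It gave 303 members called toward CPD against 271, where 14.0% and 10.6% of all sequences were. Over all settings, the direction and the side of the threshold (for counts, a change under 1.5 times) were kept in 714 of 768 values of classes, class differences and counts. Dim signal near the reference limits the 6-4PP values of the complement classes.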

Other observations

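Of the printed spots, 1 spot of a member reached the scanner ceiling on 6-4PP UV number 1. On the Non-UV arrays numbered 1, 2 members (CPD) and 4 (6-4PP) lay over 1 log2 unit above the reference, and 2 were the same probes.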
